A study of Homo sapiens with 6 samples.

Results

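The 44 genes described here encode the proteins that fold, clear and import client proteins of the endoplasmic reticulum (ER). They were listed by function and comprise 18 chaperones and folding enzymes, 10 genes of ER-associated degradation, 4 genes of stress sensing and 12 genes of the translocon and its partners. A gene was measured if at least 1 probe set named it and no other gene, which held for 43 of the 44 and for 18132 genes in all; SEC61G, the gamma subunit of the translocon, was not measured. Each gene was represented by its brightest probe set, the one with the highest mean log2 intensity over all samples, and its other probe sets served as a check. The rule itself uses function and brightness and no measured difference between the groups, although earlier results of these data were known when the list was drawn up.

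RNA came from U87 cells, an established human glioblastoma line, and was hybridised to 1-colour Affymetrix arrays. In 3 samples the cells overexpressed the microRNA miR-151a (labelled miR-151a UP) and in the other 3 a negative control microRNA (miR-NC), and the series asks which transcripts differ between the groups. The sources used here do not state the arm of miR-151a, the means and duration of overexpression, or whether the samples were separate cultures. The p-values therefore set a group difference only against the spread among these samples, and that spread may be technical. Both groups share the parent line, and no drug or ER stress agent is named in the labels. Median probe set intensities lay between 57.1 and 58.6, so the deposited arrays share a scale. A shift shared by most transcripts would therefore not be seen, and fewer cells expressing a gene and less RNA per cell cannot be told apart. VIM, a marker that most glioma lines carry, had intensities from 18644 to 19565 in the 6 samples, while the glial marker GFAP lay from 60.0 to 63.6, near the array median. Of the 8 genes of this glial and glioma list 1 passed the test used below: NES, an intermediate filament of neural progenitors, fell, at -0.31 on the log2 scale (limma adjusted p = 0.0079), and CD44 was at -0.16 without passing. The part of these in the results below was not tested. Of the marker lists for other cell types, 0 of 5 immune, 0 of 4 endothelial and 0 of 4 epithelial genes passed the test used below (at an unadjusted limma p under 0.05, 1 gene did, the endothelial PECAM1 at -0.29 on the log2 scale). The number of arrays limits the precision, and the standard error of a member's log2 fold change was between 0.04 and 0.13.

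Secretory and membrane proteins enter the ER through the SEC61 channel, are glycosylated and folded there with the help of the HSP70-type chaperone HSPA5 (BiP) and of lectin chaperones and disulfide isomerases, and are retrotranslocated to the proteasome when they fail to fold. The unfolded protein response adjusts this capacity. IRE1 (encoded by ERN1) splices XBP1 mRNA, ATF6 is cut by the site-1 protease MBTPS1 and moves to the nucleus, and PERK (EIF2AK3) slows translation and raises ATF4. XBP1 and ATF6 act on ER chaperone genes through a promoter motif called the ER stress response element (ERSE), whereas ATF4 acts on amino acid and stress genes through a composite element (CARE).

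In cells with miR-151a, transcripts of 2 genes of stress sensing, the sensor ATF6 and the transcription factor XBP1, and of 1 degradation gene rose. By their brightest probe sets, chaperone, translocon and the other degradation transcripts either fell by a modest amount or did not pass. Dimmer probe sets of some of these genes passed as higher, such as those of HSPA5 and EDEM1. Those of others passed as lower, such as those of DERL1 and SEC62. EIF2AK3, a sensor gene outside the members that was named after its values were seen, fell, as described below. XBP1 rose by 45.7%, HERPUD1 by 34.4% and ATF6 by 23.2%. A total of 9 members was lower, by 11.4% to 19.7%. These were the chaperone and folding genes HSP90B1, CALR, PDIA4, HYOU1 and MANF and the degradation genes SYVN1 and EDEM3. The others were SSR1 and SPCS3, subunits of the translocon-associated protein complex and of signal peptidase. The test was limma on log2(intensity + 1) over all genes, with a Benjamini-Hochberg adjusted p of 0.05 as the threshold, and fold changes below are on this log2 scale, as miR-151a over miR-NC. Of all genes 15.4% passed, 7.27% as higher and 8.11% as lower, beside 6.98% and 20.9% of the 43 members. The median log2 fold change was -0.06 for the members and -0.01 for all genes. For 25 members the groups were fully apart, with 6 all higher and 19 all lower, against 34.5% of all genes. By direction, 6 of 43 members were all higher against 15.1% of all genes, and 44.2% were all lower against 19.4%. The count of rises was 3 whichever sample was left out, whereas the count of 9 falls became 5, 6 and 4 without miR-151a replicates 1, 2 and 3 and 4, 3 and 2 without miR-NC replicates 1, 2 and 3. Falls over all genes dropped in the same fits, from 1470 to between 800 and 1021. Without miR-NC replicate 3 the share of falls was 4.65% among members and 4.41% among all genes, so the members no longer stood above all genes there, and without miR-151a replicate 2 the counts were 6 of 43 members and 5.63% of all genes. Members are mostly bright, and when the dimmest probe sets (under the 0.25 quantile) were left out first, 13 members were lower against 12.7% of the genes that remained, and 3 were higher against 10.7%. A limma fit with a variance trend and robust estimation called 5 members higher against 10.2% and 17 lower against 13.2% of all genes, and a pseudocount of 32 gave 5 against 9.64% and 16 against 12.2%.

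**Figure D1:**
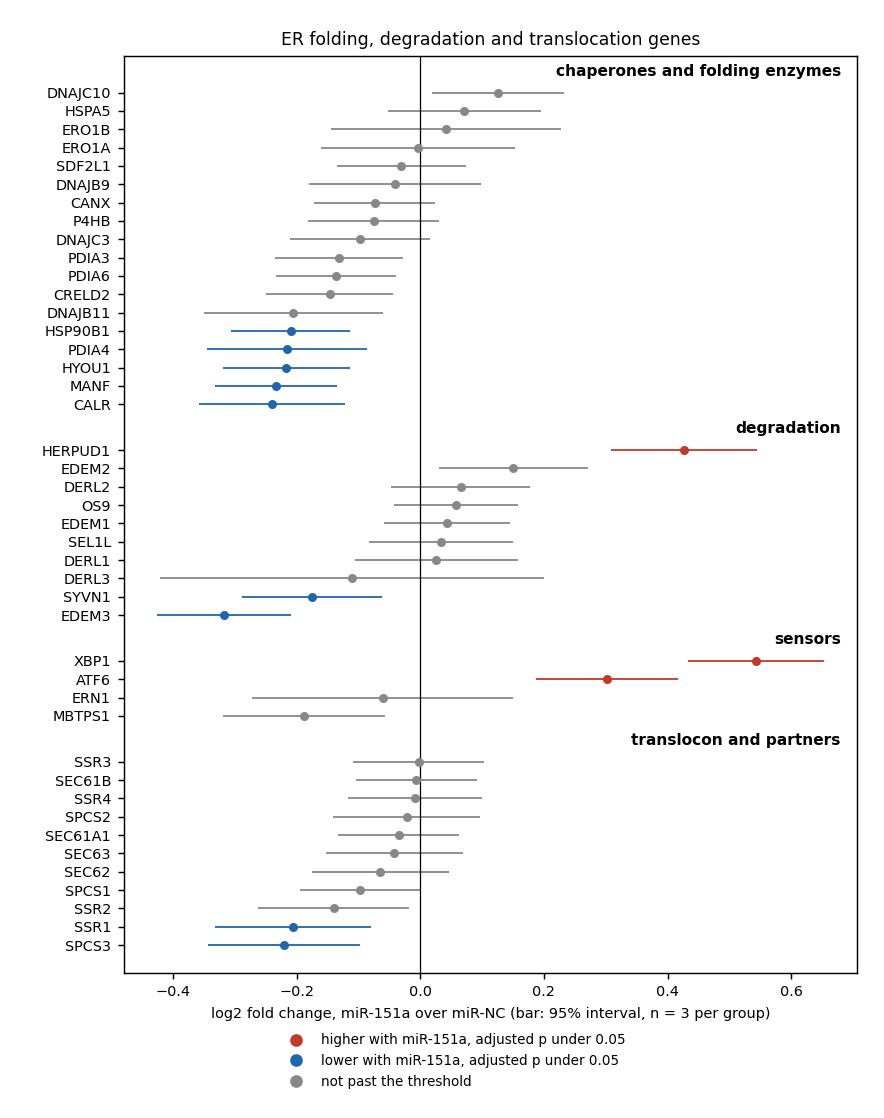
The log2 fold change (miR-151a over miR-NC) of each of the 43 measured genes by function, with its 95% interval from limma (n = 3 per group); red and blue mark genes past the threshold as higher and lower. XBP1, HERPUD1 and ATF6 stand to the right at 0.54, 0.43 and 0.30, 15 of 18 chaperone and folding genes lie to the left of 0, and all 11 measured translocon genes do in this fit.

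An ERSE or its variant ERSE-II lies in promoters of members on both sides of 0, and 6 such promoters are shown for that reason. Each stretch is 140 bases long and lies upstream of an annotated RefSeq gene start (GRCh38.p14), printed 5′ to 3′ on the strand of the gene, with motif matches in capitals. XBP1 (chr22:28800570-28800709, minus strand) and HERPUD1 (chr16:56931931-56932070, plus strand) belong to genes that rose. HSP90B1 (chr12:103930208-103930347, plus strand), HYOU1 (chr11:119057264-119057403, minus strand) and CALR (chr19:12938359-12938498, plus strand) belong to genes that fell, and HSPA5 (chr9:125241344-125241483, minus strand) did not pass by its brightest probe set.
XBP1: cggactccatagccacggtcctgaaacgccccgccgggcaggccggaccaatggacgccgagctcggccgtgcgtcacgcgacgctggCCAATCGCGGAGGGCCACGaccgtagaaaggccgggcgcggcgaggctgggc
HERPUD1: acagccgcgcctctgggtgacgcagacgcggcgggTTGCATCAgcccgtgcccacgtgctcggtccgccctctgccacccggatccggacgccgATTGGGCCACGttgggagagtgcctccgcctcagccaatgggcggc
HSP90B1: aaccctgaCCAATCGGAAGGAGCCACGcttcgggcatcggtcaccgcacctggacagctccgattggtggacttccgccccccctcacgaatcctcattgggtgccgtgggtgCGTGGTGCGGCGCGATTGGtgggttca
HYOU1: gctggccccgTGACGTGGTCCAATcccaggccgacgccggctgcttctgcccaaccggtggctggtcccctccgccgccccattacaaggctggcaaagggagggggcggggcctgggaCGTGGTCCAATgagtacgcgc
CALR: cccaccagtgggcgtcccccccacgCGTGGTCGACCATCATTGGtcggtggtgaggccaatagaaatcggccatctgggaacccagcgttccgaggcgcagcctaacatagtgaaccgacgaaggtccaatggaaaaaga
HSPA5: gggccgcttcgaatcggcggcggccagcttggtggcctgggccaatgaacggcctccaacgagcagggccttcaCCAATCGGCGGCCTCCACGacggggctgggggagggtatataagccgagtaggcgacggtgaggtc
The motifs were searched on both strands from 250 bases before to 50 after each start: ERSE (CCAAT and CCACG with 9 bases between them), ERSE-II (ATTGG and CCACG with 1 base between them), the unfolded protein response element UPRE (TGACGTGG) and CARE (TTGCATCA). Of the 44 genes, 40 had a promoter in the RefSeq table. ERSE was found in 8 of these 40, against 0.0916% of 27305 genes of all kinds. The list holds ER chaperone genes, on which ERSE is known to act, so this share describes the list and was not tested. ERSE-II was found in 3 members, against 0.0696% of all genes, and UPRE in 5, or 12.5%, against 0.927%. CARE was found in 1 member, HERPUD1, and in 1.08% of all genes. In XBP1 the ERSE lies 52 to 34 bases before the start, and in HSPA5 66 to 48 bases before it. HSP90B1 has 2 matches on opposite strands, and HYOU1 has 2 of ERSE-II, of which the distal one overlaps its UPRE. HERPUD1 holds a CARE 176 to 169 bases before the start in addition to its ERSE-II. Among the 11 members with an ERSE or ERSE-II, 2 were higher (XBP1 and HERPUD1), 3 were lower (CALR, HSP90B1 and HYOU1) and 6 did not pass, with a median log2 fold change of -0.07. ATF6, which also rose, and MANF, PDIA4, SYVN1, EDEM3, SSR1 and SPCS3, which also fell, are not among these 11. Members without a promoter in the RefSeq table were not searched, and elements with other letters or farther from the start were not sought. Absence from the 11 therefore does not show that a gene lacks an element. A match describes the letters of the sequence, and binding of a factor was not measured.

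**Figure D2:**
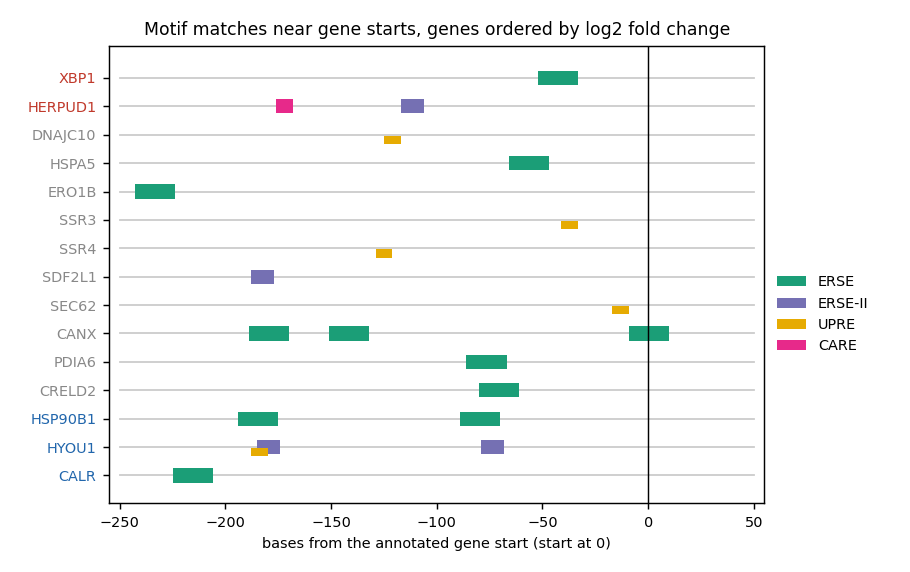
Positions of motif matches (coloured bars) in bases from the annotated gene start for the 15 members with a match, ordered from the highest to the lowest log2 fold change; gene names are red where higher, blue where lower and grey where not past the threshold. The 3 matches of CANX come from start sites that lie near each other and share 1 element, and the genes at the top (XBP1, HERPUD1) and at the bottom (HSP90B1, HYOU1, CALR) carry ERSE or ERSE-II alike.

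XBP1, a transcription factor whose mRNA is both the substrate of IRE1 and a target of ATF6, had the largest rise among the members. Its intensity was 1344, 1450.1 and 1371 in miR-151a replicates 1 to 3 and 944, 962 and 949.7 in miR-NC replicates 1 to 3. Every miR-151a sample lay above every miR-NC sample by a gap far wider than the spread within either group. On the log2 scale XBP1 differed by 0.54 (standard error 0.05, 95% interval 0.43 to 0.65, limma adjusted p = 0.00042). A single probe set names XBP1, so this value has no second probe set as a check, and it does not separate spliced from unspliced mRNA. ATF6, the membrane-bound factor, had 215, 228 and 233 with miR-151a and 186, 178 and 183 with miR-NC. The groups did not overlap, and the log2 fold change was 0.30 (95% interval 0.19 to 0.42, limma adjusted p = 0.0064). All 3 probe sets of ATF6 were past the threshold over all probe sets, between 0.30 and 0.31.

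The other sensing genes did not pass. ERN1, the kinase and nuclease IRE1 itself, was dim, with 19.7, 16.2 and 20.1 against 18.9, 18.3 and 21.2, close to the 14.9 to 15.6 that marks the lower quartile of each array, and the interval around its log2 fold change of -0.06 was wide, from -0.27 to 0.15. MBTPS1, the protease that cuts ATF6, had 209, 216 and 208 with miR-151a and 256, 226 and 241 with miR-NC. These values did not overlap, but the log2 fold change of -0.19 did not pass (limma adjusted p = 0.064), and it passed in 4 of 13 alternative settings, with an adjusted p from 0.011 to 0.17. XBP1 and ATF6 passed in all 13.

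**Figure D3:**
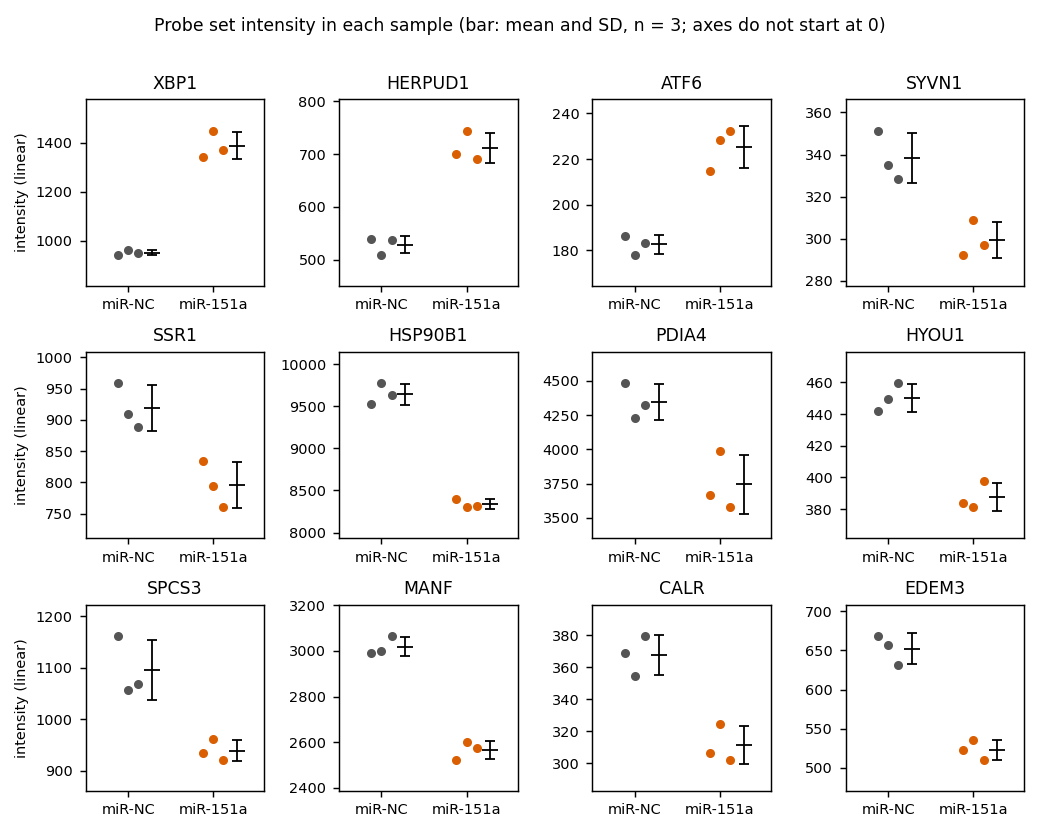
Linear probe set intensity of the 12 genes past the threshold in each sample (points), with the mean and SD of each group (n = 3); the axes do not start at 0. In all 12 panels the miR-151a samples lie wholly above (XBP1, HERPUD1, ATF6) or wholly below (the other 9 genes) the miR-NC samples.

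Among the chaperones and folding enzymes, 0 rose and 5 fell, and the median log2 fold change of the 18 genes was -0.11. At an unadjusted limma p under 0.05, 1 was higher and 9 were lower, and of all genes 12.8% were higher and 16.0% lower by that measure. MANF, a small ER protein that binds HSPA5 and is secreted under stress, had 2523, 2602 and 2576 with miR-151a and 2989, 2999 and 3067 with miR-NC, a fall of the whole group below the control range (log2 fold change -0.23, standard error 0.04, limma adjusted p = 0.0098). This was the one chaperone call that held in all 13 settings, although a single probe set names the gene. HSP90B1 (GRP94), the HSP90 of the ER, had 8401, 8301 and 8309 against 9525, 9775 and 9628. Its log2 fold change was -0.21 (95% interval -0.31 to -0.11, limma adjusted p = 0.014), and all 7 of its probe sets lay below 0, 1 of them past the threshold. CALR, the soluble lectin chaperone, had 307, 325 and 302 against 369, 354 and 379.7, at a log2 fold change of -0.24. Its other probe set, whose groups overlapped, was at -0.13 and did not pass. The call of CALR was also lost with the mean over probe sets. HYOU1, a nucleotide exchange factor for HSPA5, had 384, 381 and 398 against 442, 449.6 and 459.6, at -0.22, and 3 of its 9 probe sets fell. PDIA4, a disulfide isomerase, had 3665, 3990.4 and 3579 against 4483, 4229.9 and 4321, at -0.22, with replicate 2 the highest of the miR-151a samples and closest to the controls. These 4 calls depend on single samples. The adjusted p went above the threshold for HSP90B1 without miR-NC replicate 2 or 3, for HYOU1 without replicate 2 of either group or miR-NC replicate 3, for CALR without replicate 1 or 3 of either group, and for PDIA4 when any 1 sample except miR-151a replicate 2 was left out. In the same order, the highest adjusted p over all settings was 0.060, 0.064, 0.069 and 0.12.

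The remaining folding genes did not pass, and most of them had negative values. DNAJB11, a J-domain partner of HSPA5, was at -0.21 (limma adjusted p = 0.064), CRELD2 at -0.15 (0.064), and the disulfide isomerase genes PDIA6 and PDIA3 at -0.14 (0.066) and -0.13 (0.092), each with groups that did not overlap. P4HB, another disulfide isomerase, and CANX, the membrane-bound partner of CALR, were at -0.08 and -0.07. For P4HB the sign turned with the mean over its 6 probe sets, at 0.03. The J-domain genes DNAJC3 and DNAJB9 were at -0.10 and -0.04, and SDF2L1, which forms a complex with J proteins, at -0.03 with a 95% interval from -0.13 to 0.07. The oxidases ERO1A and ERO1B, which pass disulfide bonds to P4HB, were at 0.00 and 0.04. ERO1A had 644, 611 and 568 against 656, 584 and 588, so its groups overlapped. ERO1B had 2 dim probe sets past the threshold as higher. DNAJC10, a J-domain reductase, was the highest of this group at 0.13 by its brightest probe set, while another of its 7 probe sets fell, at -0.26, and the mean over them was -0.10.

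HSPA5, the chaperone most often used to read ER stress, did not pass by its brightest probe set, and its probe sets disagreed. That probe set had 7093, 6470.4 and 6537 with miR-151a and 6172, 6468 and 6487 with miR-NC, and the groups overlapped (log2 fold change 0.07, 95% interval -0.05 to 0.19). Replicate 1 was the high sample of the miR-151a group. Of the 5 other probe sets, 4 were also bright and had groups that did not overlap, all higher with miR-151a, at 0.13, 0.16, 0.21 and 0.29, and the last 2 of these passed over all probe sets (limma adjusted p = 0.021 and 0.0065). The brighter of these 2 had 4379.5, 4540.5 and 4453 against 3849, 3821 and 3886. The dimmest of the 6 moved the other way, with 173, 184 and 184 against 209, 204 and 210.3 (-0.20, limma adjusted p = 0.033). With the mean over all 6, HSPA5 was at 0.11 (limma adjusted p = 0.074).

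The degradation genes split. HERPUD1, an ER membrane protein that organises the ubiquitin ligase complex around SYVN1, had 699.6, 744 and 691 with miR-151a and 539, 510.0 and 538 with miR-NC. All miR-151a values lay above all miR-NC values, at a log2 fold change of 0.43 (standard error 0.05, 95% interval 0.31 to 0.54, limma adjusted p = 0.0017). Of its 4 probe sets 3 rose, at 0.37, 0.39 and 0.43, and the last one, which was very dim, was at 0.10. EDEM3, one of 3 mannosidase-like proteins that mark glycoproteins for disposal, moved down, with 523, 536 and 511 against 669, 657 and 631 (log2 fold change -0.32, standard error 0.05, limma adjusted p = 0.0040). Of its 5 probe sets 4 fell, between -0.35 and -0.27. HERPUD1 and EDEM3 passed in all 13 settings. SYVN1, the ligase HRD1, had 292, 309 and 297 against 351, 335 and 328. Its groups did not overlap, but its log2 fold change of -0.17 was just past the threshold (limma adjusted p = 0.049) and was lost whichever of the 6 samples was left out, with an adjusted p up to 0.14.

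The paralogs of EDEM3 had positive values. EDEM2 had 316, 348 and 324 against 299, 289.9 and 299, and its log2 fold change of 0.15 did not pass (limma adjusted p = 0.095). For EDEM1 the brightest probe set was at 0.04 and did not pass, with 919, 926 and 892 against 866, 899 and 892. Its 4 dimmer probe sets all rose, at 0.28, 0.38, 0.38 and 0.42, and averaging all 5 put EDEM1 at 0.30 (limma adjusted p = 0.0059). The call for EDEM1 therefore turned on which probe set stands for the gene. The same held for DERL1, a derlin of the retrotranslocation channel. Its brightest probe set was at 0.03, the other two fell, at -0.26 and -0.32, and the mean over the 3 was at -0.19 and past the threshold as lower (limma adjusted p = 0.016). DERL2 was at 0.07, and DERL3, which is dim and variable, was at -0.11 with an interval from -0.42 to 0.20. SEL1L, the partner of SYVN1, and OS9, a lectin that delivers glycoproteins to it, were at 0.03 and 0.06.

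The translocon genes had small values. All 11 measured ones lay below 0, as did 52.6% of all genes, on the log2 scale, from -0.22 to just under 0, with a median of -0.04, and 2 of them fell. At an unadjusted limma p under 0.05, 4 were lower and 0 higher, beside the 16.0% and 12.8% of all genes. The sign turned in at least 1 of the 13 settings for 5 of the 11, namely SSR3, SSR4, SPCS2, SEC61A1 and SEC61B, and none of these passed with the turned sign. SPCS3, a signal peptidase subunit, had 934, 962 and 921 with miR-151a and 1162, 1056 and 1068 with miR-NC. Replicate 1 was the highest control sample, and the groups did not overlap (log2 fold change -0.22, limma adjusted p = 0.029). SSR1, the alpha subunit of the translocon-associated protein complex, had 834, 794 and 760.4 against 959, 909 and 888 (log2 fold change -0.21, limma adjusted p = 0.041). All 8 of its probe sets lay below 0, and 5 of them fell. The call of SPCS3 was lost whichever sample was left out, and that of SSR1 when any 1 sample except miR-151a replicate 1 was left out, and the adjusted p reached 0.0895 and 0.124.

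The central subunits of the channel did not pass, and their intervals were narrow. SEC61B had 4669, 4525 and 4680.5 against 4629, 4674 and 4633, and its 95% interval ran from -0.10 to 0.09. SEC61A1 was at -0.04 (interval -0.13 to 0.06), SSR4 at -0.01 and SSR3 at 0.00, and the groups of SEC61B, SSR3 and SSR4 overlapped, while those of SEC61A1 did not. SSR2 was at -0.14 and SPCS1 at -0.10, both with groups that did not overlap. For several of these genes dimmer probe sets gave larger falls than the brightest one. SEC62, which helps post-translational import, was at -0.06 by its brightest probe set, and 3 of its other 8 fell, between -0.37 and -0.33. SEC63, its J-domain partner, was at -0.04, with 1 of 3 probe sets lower at -0.31. SPCS2 and SSR3 each had 1 lower probe set, at -0.31 and -0.30. When probe sets were averaged, 7 translocon genes passed as lower in place of 2.

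**Figure D4:**
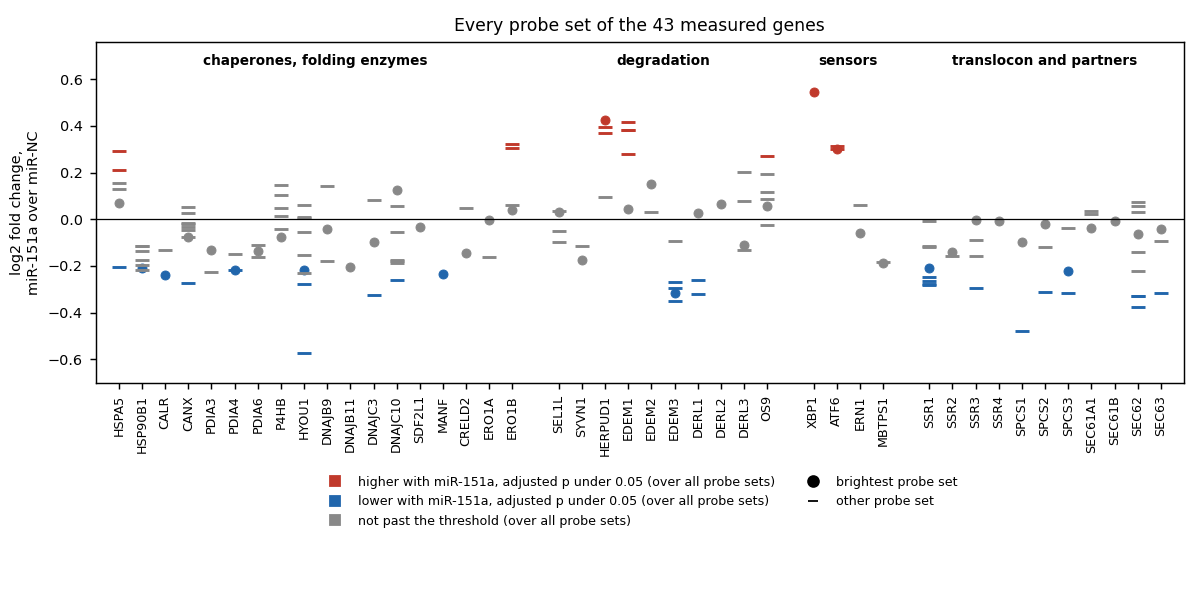
The log2 fold change (miR-151a over miR-NC) of every probe set of the 43 genes, with the brightest probe set of each gene as a filled point and the others as dashes; colours mark the call over all probe sets. HERPUD1, ATF6, EDEM3 and SSR1 have all their probe sets on 1 side of 0. So does EDEM1, although its brightest probe set lies nearest to 0, whereas those of HSPA5, DERL1 and SEC62 lie on both sides.

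Over all 154 probe sets of the 43 genes, 16 rose and 32 fell, against 6.81% and 7.27% of the 49293 probe sets tested. Falls made up 12 of the 16 calls among the chaperones and all 14 calls among the translocon genes. The members of stress sensing had 4 rises, from XBP1 and ATF6, and 0 falls. The degradation genes had 8 rises, from HERPUD1, EDEM1 and OS9, and 6 falls, from EDEM3 and DERL1. When genes were represented by the mean over their probe sets, 5 members rose and 17 fell, against 8.4% and 9.34% of all genes. EDEM1 and ERO1B joined the rises.

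Within groups, replicate 2 was the highest of the miR-151a samples for 24 of 43 members, or 55.8%, against 34.7% of all genes. Replicate 1 was the highest miR-NC sample for 21 of 43 members, or 48.8%, against 31.3% of all genes, with 6 of 18 chaperones and 8 of 11 translocon genes. In the 152 further ER genes described below these shares were 52.0% and 44.7%. The array also holds control probe sets at both ends of beta-actin, and their log2 ratio (3 prime end over 5 prime end), a measure of RNA quality, lay from 0.27 to 0.30 in the miR-151a samples and from 0.37 to 0.43 in the miR-NC samples. For GAPDH the ranges were 0.045 to 0.052 and 0.029 to 0.049. The labels name a whole-transcript protocol, and the part of these ratios in the results above was not tested.

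Other ER genes were compared through 6 further lists of 157 genes, of which 152 were measured, 13 rose (8.55%) and 25 fell (16.4%). Of all genes 7.27% rose and 8.11% fell, so the share of rises was near that of all genes. Falls made up 28.6% of the folding list, 26.7% of the glycan and transport list and 16.7% of the oligosaccharyltransferase list described next. Without 1 sample in turn the 25 falls became 9 to 17, and the 13 rises 10 to 12. Among 35 further folding genes there were 10 falls, which became 5 to 8 without 1 sample, and 0 rises, and their median was -0.10. Among them were the thioredoxin-like membrane proteins TMX4 and TMX3, at -0.44 and -0.32, and the prolyl isomerases FKBP7 and FKBP14, at -0.30 and -0.28. For TMX4, 1 of its 3 probe sets fell. Of 15 genes of glycan-based quality control and of cargo transport from the ER, 4 fell and 0 rose. They were UGGT1 and UGGT2, which sense misfolded glycoproteins, at -0.21 and -0.19, the cargo receptor LMAN1 at -0.22 and ERGIC2 at -0.18. Without 1 sample these 4 became 0 to 2. Over all probe sets, 2 of 3 passed as lower for UGGT1, 0 of 5 for UGGT2, 3 of 6 for LMAN1 and 3 of 4 for ERGIC2. The highest probe set was at 0.20 for UGGT2 and at 0.19 for LMAN1. Of 12 subunits of oligosaccharyltransferase, which attaches glycans to entering proteins, STT3A and MAGT1 fell, at -0.20 and -0.23, and 0 to 1 did without 1 sample. Of 32 further translocation genes SEC11A, TRAM2 and GET1 fell, at -0.18, -0.17 and -0.22, and 0 to 2 did without 1 sample. This share of falls, 9.4%, was near the 8.11% of all genes. The median over the list was 0.00. Of their probe sets, 1 of 4, 0 of 3 and 2 of 6 passed as lower, in the same order.

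Of 35 further degradation genes measured, 4 rose (11.4%) and 2 fell (5.71%). Of all genes 7.27% rose and 8.11% fell, so both shares were near those of all genes. RNF185, an ER membrane ubiquitin ligase, had 321, 356 and 301 with miR-151a and 216, 227 and 219 with miR-NC, at a log2 fold change of 0.56 (limma adjusted p = 0.0017). UBE2J2, a ubiquitin-conjugating enzyme of the ER membrane, was at 0.43 with all 5 of its probe sets higher. TRIM13, another ER-anchored ligase, was at 0.34, with 2 of its 5 probe sets higher and the lowest at -0.01. ERLIN2, which recruits a ligase to activated receptors, fell, at -0.33, with 2 of its 10 probe sets lower and the highest at 0.07. Without 1 sample the 4 rises became 2 to 4.

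Among the lists compared here, the largest log2 fold changes lay in that of stress signalling genes outside the members. In it 9 of 23 rose (39.1%) and 4 fell (17.4%), against 7.27% and 8.11% of all genes. Without 1 sample these counts became 7 to 9 and 2 to 3. The list was drawn up with earlier results of these data known, and its share was not tested. TRIB3, a pseudokinase induced by ATF4 and DDIT3, had 427, 446 and 429.8 against 171, 186 and 187, a 2.39-fold rise. DDIT3 (CHOP), a stress transcription factor, had 699, 736 and 775 against 339, 340.2 and 348, a 2.15-fold rise, and CHAC1, a glutathione-degrading enzyme, rose 1.93-fold (limma adjusted p = 1.0e-05, 1.8e-05 and 9.6e-05 for the 3 genes). ATF3 was at 2.12. EIF2AK3, the sensor PERK upstream of ATF4, moved the other way. It was named after its values were seen, outside the rule for naming genes given below. It had 183, 179 and 179 with miR-151a against 235, 230.5 and 226 with miR-NC. Its log2 fold change was -0.35 (limma adjusted p = 0.0019), with all 3 of its probe sets lower. ATF4, also named outside that rule, rose by its only probe set, at 0.23 (limma adjusted p = 0.014). Of the genes for the 3 ER stress sensors, ATF6 thus rose, EIF2AK3 fell and ERN1 did not pass.

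**Figure D5:**
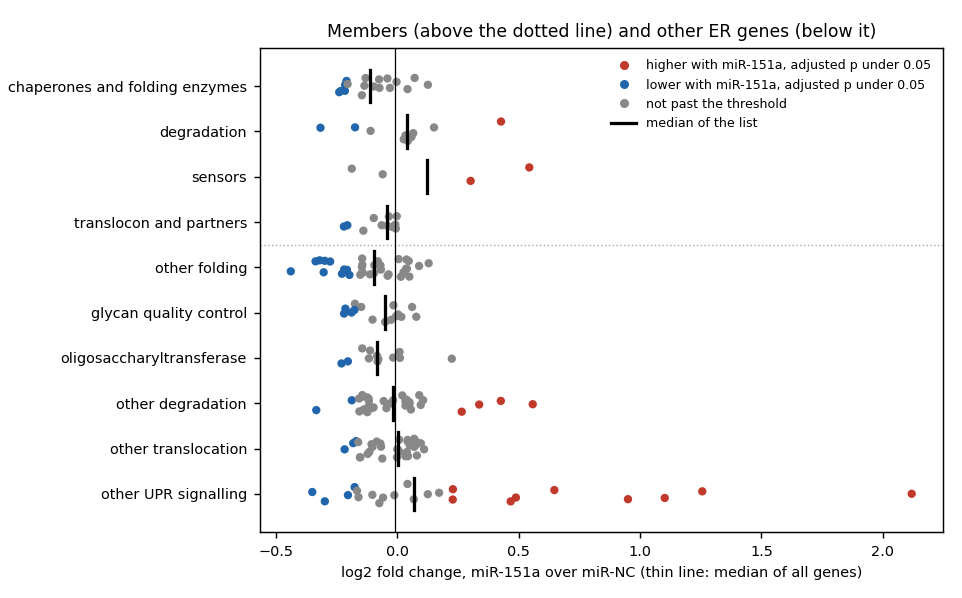
The log2 fold change of each measured gene in the 4 groups of members (above the dotted line) and in 6 lists of other ER genes (below it), with the list median as a thick bar and the median of all genes as a thin line. Falls past the threshold (blue) lie between -0.44 and -0.17 in the folding, glycan, glycosylation and translocation lists, which hold 0 rises; the degradation and stress signalling lists hold both rises (red) and falls, such as ERLIN2 at -0.33 and EIF2AK3 at -0.35.

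Markers of professional secretory cells, whose ER is large, gave values on both sides. Of 5 measured genes, PRDM1, a transcription factor of plasma cells, rose by 29.4% and SDC1, a surface proteoglycan, fell by 12.5%, and the other three did not pass. The summed intensity of the list was 1684 to 1754 with miR-151a and 1879 to 1934 with miR-NC, most of it from SDC1, while MZB1, an ER protein of plasma cells, lay at 7.69 to 8.30 in all samples, below the lower quartile of the arrays. The part of these genes in the results above was not tested.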

How the data were processed

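The table deposited by the authors holds linear probe set intensities for 49395 probe sets in 6 samples. MAS5 is named, per the submitters' processing notes, without a version; other processing steps: not given in the sources used here. After 102 control probe sets were dropped, 49293 were tested, of which 44988 carried 1 gene symbol, 1832 several and 2473 none. Symbols came from the platform annotation, updated by Entrez identifier to RefSeq (GRCh38.p14; 44961 matched). Groups and replicate numbers were read from sample titles. limma 3.58.1 (R 4.3.3; lmFit, eBayes, group as the only term) was run on log2(intensity + 1), a pseudocount that understates changes of dim genes, over 18132 genes and separately over all probe sets, and was tested on simulated data.

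Members and gene lists were chosen with earlier results of these data known. All members may be named. From each further list the text names up to 4 genes that passed, ranked by p, or 2 if there were none. EIF2AK3 and ATF4 are exceptions, named after their values were seen although other genes of their list had a smaller p. Settings tried besides were quantile normalization, centring on the median, a pseudocount of 32, dropping dim probe sets (under the 0.25 quantile), limma's trend and robust options, a block for replicate number, averaging a gene's probe sets, and dropping each sample once. Promoters are from RefSeq, and plots used matplotlib 3.10.9.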

Additional observations from a re-analysis of the deposited data

How the results depend on the processing

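XBP1, ATF6, HERPUD1, MANF and EDEM3 kept their direction and their call in all 13 alternatives, and the other 7 members past the threshold kept their direction but each lost the call in at least 3. The 3 rises became 5 with a pseudocount of 32, 5 with a variance trend and robust fit and 5 with the mean over probe sets, and were 3 without any single sample. The 9 falls became 16, 17 and 17 in these 3 settings and 2 to 6 without 1 sample. Chaperone rises went from 0 to 1 in each of the 3 settings, and stayed at 0 without 1 sample. Chaperone falls went from 5 to 9 with a pseudocount of 32, 8 with dim probe sets left out, 10 with the variance trend and 1 to 5 without 1 sample. Degradation rises went from 1 to 2 with quantile normalization, the pseudocount of 32, the variance trend and the mean over probe sets; degradation falls went from 2 to 1 whichever sample was left out. Falls among the members of stress sensing went from 0 to 1 with the pseudocount of 32, dim probe sets left out, the variance trend and the mean over probe sets. Translocon falls went from 2 to 1 with quantile normalization, 4 with the pseudocount of 32, 4 with the variance trend, 7 with the mean over probe sets and 0 to 1 without 1 sample. At the level of probe sets, the 16 rises became 9 to 13 without 1 sample, and the 32 falls became 52 with the pseudocount of 32, 56 with the variance trend and 17 to 27 without 1 sample. Of the 43 members, 14 changed sign in at least 1 setting. DERL1 changed sign with the mean over probe sets, to -0.19 (from 0.03). The causes of these changes were not tested.

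The sample titles number the replicates without naming a pairing. Deviations from the group means of same-numbered samples correlated at -0.11, -0.15 and 0.07 over 18132 genes, and samples did not all correlate best with their own number. With 3 samples per group the deviations are tied to each other, so these values cannot settle whether the samples were paired. With the replicate block in limma, 3 members rose and 3 fell (chaperone falls 2, degradation falls 1, translocon falls 0), and 17 probe sets fell; of all genes 4.99% rose and 4.53% fell in that fit, beside 6.98% and 6.98% of members. The median gene moved by less than 0.02 on the log2 scale under any setting. Values of dim probe sets (ERN1, ERO1B, DERL3) limit what can be said of those genes, since signal over background is not known here.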
